A study of Mus musculus with 15 samples.

Results

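The cytosolic ribosomal protein genes were followed in mouse MC3T3 clone 1b cells, a calvarial cell line used as a model of early osteoblasts. A gene was included where an array probe set carried its symbol alone, as Rpl or Rps with a number, as a P-stalk protein (Rplp0 to Rplp2) or as Rpsa. S6 kinases, pseudogenes and unnamed clones were left out. This gave 35 of the 8251 genes that had a probe set with a single symbol, 17 of the large and 18 of the small subunit, and they had 49 of the 12422 probe sets other than controls. Each gene was represented by its probe set of highest mean log2 signal. The genes were chosen by name and not by their values, although earlier results of these data were known.

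The 15 arrays formed 5 groups of 3, with 1 array from each of preparations 1, 2 and 3 in a group. Cells in control medium were taken at day 0. Cultures with beta-glycerol phosphate (GP), a phosphate source for mineral, were taken at days 1 and 3. Further cultures received GP together with ascorbic acid (AA), a cofactor of collagen hydroxylation, and bone morphogenetic protein 2 (BMP-2), which induces bone formation, and were taken at the same days. These GP/AA/BMP-2 cultures are called treated. No culture received AA or BMP-2 alone, so their parts cannot be told apart, and neither can those of GP and of time between day 0 and GP day 1. All groups share 1 clone. The labels do not tell whether a preparation was a culture of its own, so a p-value measures only the spread between these arrays, which may be technical.

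A cytosolic ribosome pairs a small subunit, which reads the messenger RNA, with a large subunit, which joins amino acids. Each subunit is built from ribosomal RNA and proteins, most of which are needed in equal numbers. Most of the messenger RNAs for these proteins start with a C followed by a run of C and T (U in RNA), the terminal oligopyrimidine tract or TOP, through which growth signals via the kinase mTORC1 and the protein Larp1 control how much of each messenger is translated. An array measures the amount of messenger RNA and not its translation.

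Such a tract can be seen near the RefSeq start of 6 of the genes, chosen from those that have it in this window, to show what it looks like. It need not begin at that start: it begins at position 3 in Rpl13a. In Rpl7a it is already present at position -10, the first base searched and shown, so it may begin earlier. Each line is 30 bases of the coding strand, 10 before and 20 after the RefSeq start in build GRCm38.p6, and capitals mark a tract of at least 8 C or T letters that begins with C within 10 bases of that start. Rpl13a lies at chr7:45128726-45128755 (minus strand), Rpl7a at chr2:26910797-26910826 (plus), Rps10 at chr17:27635225-27635254 (minus), Rps18 at chr17:33955646-33955675 (minus), Rps27 at chr3:90213629-90213658 (minus) and Rps24 at chr14:24490668-24490697 (plus). Rpl22, at chr4:152325716-152325745 (plus), is shown as a gene without such a tract in this window. The window at its other RefSeq start, chr4:152324426-152324455 (plus), had no such tract either and is not shown.
Rpl13a: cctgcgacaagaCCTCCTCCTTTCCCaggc
Rpl7a: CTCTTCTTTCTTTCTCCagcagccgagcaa
Rps10: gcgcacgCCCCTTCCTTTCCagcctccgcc
Rps18: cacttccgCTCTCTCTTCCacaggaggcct
Rps27: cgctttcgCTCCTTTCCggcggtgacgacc
Rps24: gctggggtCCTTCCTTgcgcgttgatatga
Rpl22: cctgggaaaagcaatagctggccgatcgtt

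Of the 35 genes, 28 matched the RefSeq promoter table, and 10 of these (35.7%) had such a tract, against 9.43% of the 27025 genes in the table. The letters CGGAAG, on either strand, stood in the 300 bases around the start of 19 of the 28 (67.9%), against 18.8% of all genes. On the opposite strand they read CTTCCG, which can overlap a tract. The letters CACGTG stood in 3 (10.7%), against 8.09%. A match describes letters in a window, and no match says only that they are not in it.

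The ribosomal protein genes were sorted into signal classes on these arrays. Of the 35, 26 passed the filter on dim probe sets and entered the tests, 12 of the large and 14 of the small subunit. The filter asked for a mean log2 signal at or above that of an intensity of 22.3. Among these, 20 were bright, with a mean intensity of at least 1000, 10 of each subunit. The 3 in the middle were Rpl22, Rpl7l1 and Rps27, and the 3 dim ones, with means under 60, were Rps13, Rps29 and Rps4l. Both limits of the classes were set after the values had been seen. The 9 genes below the filter were Rpl32, Rpl35a, Rpl38, Rpl39, Rpl39l, Rps14, Rps15, Rps20 and Rps27l, and their highest value on any array was 37.3 (Rpl38, GP day 3, preparation 2).

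**Figure D1:**
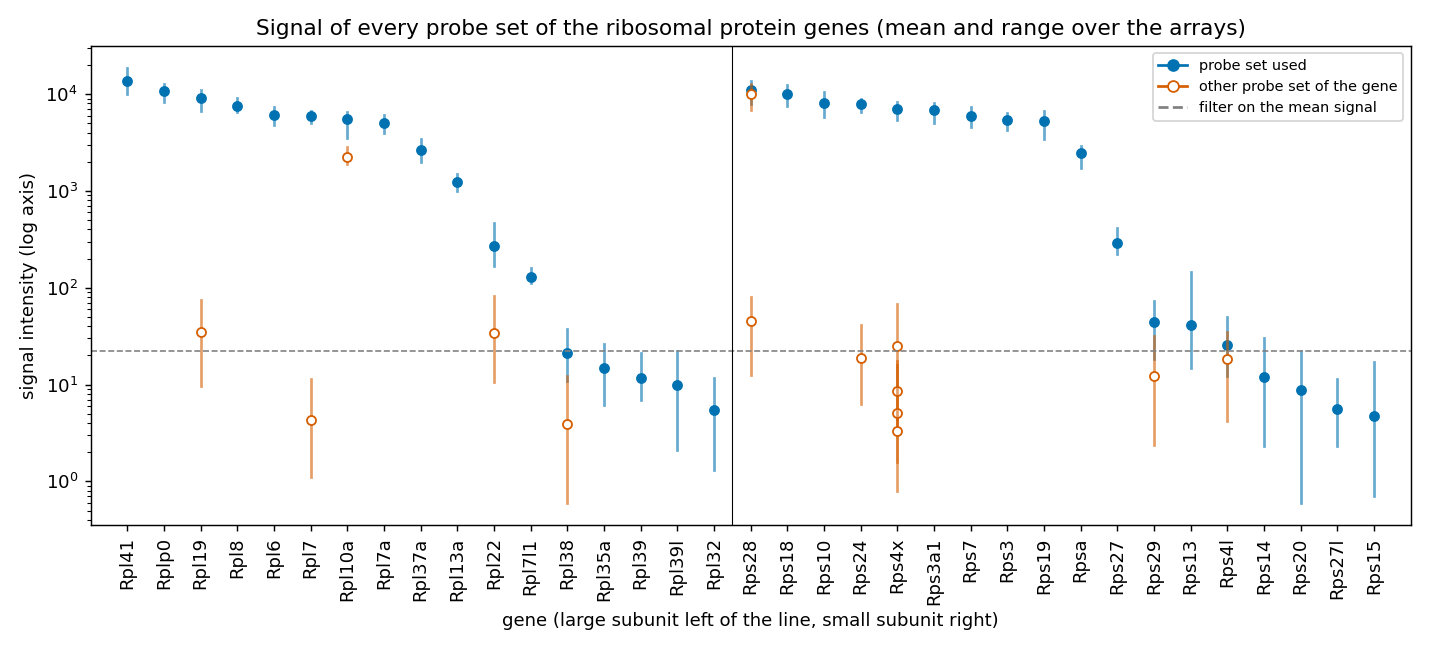
Mean signal intensity (log axis) of each of the 49 probe sets of the 35 genes, with the range over 15 arrays as a vertical line. Filled blue points are the probe sets used, open orange points the other probe sets of the same gene, and the dashed line is the filter at 22.3. The filter acted on mean log2 signal and the points are mean intensities, so a point just above the line can have failed it. Probe sets of 1 gene can lie far apart, as the 5 of Rps4x do.

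Probe sets of the same gene differed widely in signal, so a low value describes the probe set. Rps4x, the X-linked gene for a protein of the small subunit, had 5 probe sets, 1 with a mean of 7040 and 4 with means of 3.35 to 24.8. The 2 probe sets of Rps24 had means of 7830 and 18.7, and those of Rpl7 had 5920 and 4.31. The brighter of Rps24, which was used, has a suffix that marks probes chosen under loosened rules, so such a suffix is not limited to dim probe sets. Rps28 had 2 bright probe sets, at 11000 and 9930, and 1 more at 45.9. In all, 10 genes had more than 1 probe set, and 9 of the 14 second probe sets lay below the filter. The Rps4x probe set with a mean of 24.8 was among these 9, because the filter used mean log2 signal. A further 39 probe sets that named a ribosomal protein beside other symbols were outside the rule, and 24 of them were bright.

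No ribosomal protein gene differed between treated and GP cultures at day 1 by the test used for the whole array. With limma and Benjamini-Hochberg adjustment over all 7453 tested probe sets, 0 of the 26 genes passed an adjusted p of 0.05, where 0.926% of all tested probe sets did (69 probe sets). With the preparation number as a block, 0 of 26 passed against 4.99% of all. At an unadjusted p under 0.05, 1 of the 26 passed in either fit, against 11.3% of all without the block and 19.7% with it. The median log2 difference over the 26, treated minus GP, was -0.13, with 22 lower and 4 higher, where the median of all tested probe sets was 0.00 and 50.6% were lower. All 20 bright genes had differences below 0, between -0.25 for Rpl10a, a protein of the L1 stalk, and -0.05 for Rpl8, a protein near the peptidyl transferase centre. Both subunits had such values, with medians of -0.09 for the 10 bright large-subunit genes and -0.13 for the 10 bright small-subunit genes.

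The day 1 differences were large in 1 of the 3 preparations. In preparations 1, 2 and 3 the medians over the 26 were 0.01, -0.04 and -0.34. On the treated day 1 array of preparation 3, each of the 20 bright genes lay below its own mean over the 15 arrays, with a median deviation of -0.36 on the log2 scale. The 463 other bright probe sets had a median deviation of -0.05 there. The group of treated day 1 arrays held the lowest of the 5 group means for 19 of the 20 bright genes, but for 7 of 20 when preparation 3 was left out of every group. Without that array the median difference over the 26 at day 1 was -0.02.

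Treated cultures sampled at day 3 again showed 0 genes of 26 called by limma against their GP controls, where 4.11% of all tested probe sets were called (306 probe sets). With the replicate block the count was 0 against 13.8%, and at an unadjusted p under 0.05 it was 0 in both fits, against 16.7% of all without the block and 26.8% with it. The median over the 26 was 0.04, with 20 higher and 6 lower (50% of all tested probe sets were higher), and 0.20, 0.08 and -0.18 within preparations 1, 2 and 3. The preparations thus differed in sign, and the differences were smaller than the spread between them. The difference between the day 3 and day 1 effects had a median of 0.16 over the 26, with 22 above 0 (50.7% of all tested probe sets). It was called for 0 of the 26 and for 0% of all tested probe sets with limma, while 0 of the 26 and 3.62% of all had an unadjusted p under 0.05. With the block these counts were again 0 of the 26, against 0% and 8.72% of all.

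**Figure D2:**
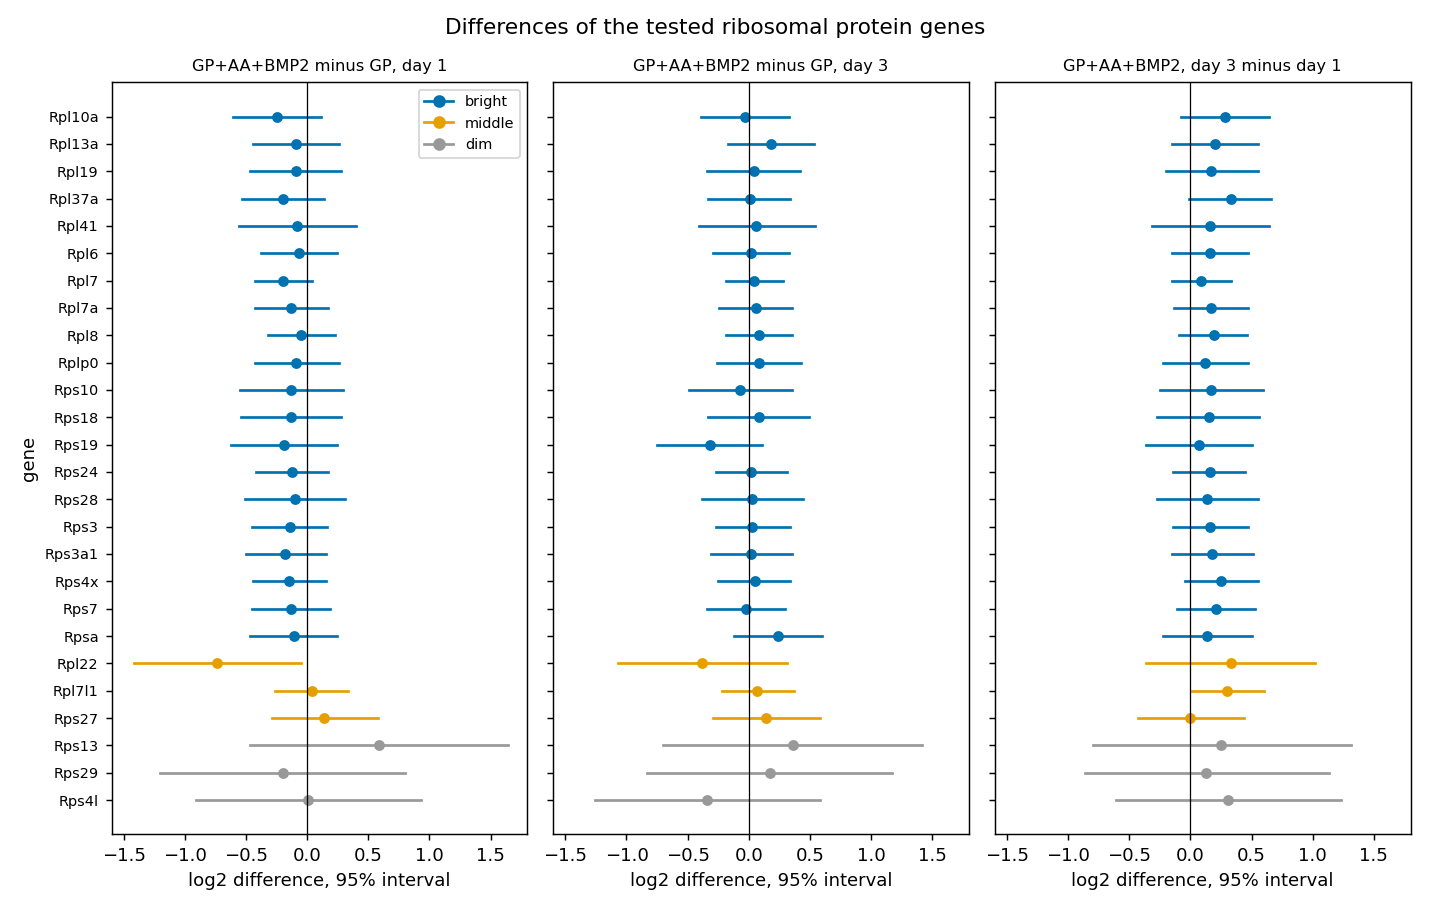
Log2 difference (point) with its 95% interval from limma (line) for the 26 tested genes, treated minus GP at day 1 (left) and day 3 (middle) and treated day 3 minus treated day 1 (right), coloured by signal class. Bright genes have short intervals that all cross 0, and dim genes have wide ones.

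Over the 20 bright genes the 95% intervals of the treated to GP ratio lay between 0.651 and 1.32 at day 1 and between 0.595 and 1.52 at day 3. Standard errors were 0.11 to 0.22 for the bright genes on the log2 scale and up to 0.49 for the dim ones. A p that missed the threshold does not show that the groups were alike, and each gene's own interval gives the differences that its values leave possible. These limits are the widest over the 20 genes. With the preparation number as a block the intervals lay between -0.56 and 0.18 on the log2 scale at day 1 and between -0.69 and 0.51 at day 3.

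The time comparisons gave the same counts. GP day 1 against day 0 had 0 of 26 genes called, where 0.242% of all probe sets were called, and a median of 0.00 (13 higher and 13 lower, with 50.3% of all higher). GP day 3 against GP day 1 had 0 of 26, where 0.711% of all were called, and a median of 0.02 (16 higher, with 49.5% of all higher). Treated day 3 against treated day 1 had 0 of 26, where 0.148% of all were called. With the block, which called 0.725%, 1.85% and 3.84% of all probe sets in these 3 comparisons, the member counts were also 0. At an unadjusted p under 0.05 without the block, 0, 0 and 1 of the 26 passed by limma, against 3.46%, 6.43% and 8.29% of all. With the block 1, 0 and 4 passed, against 7.62%, 13.4% and 16.5% of all.

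In treated cultures all 26 point estimates of day 3 minus day 1 were above 0, where 48.5% of all tested probe sets were higher at day 3. The median was 0.17, and it was 0.16, 0.15 and 0.23 within preparations 1, 2 and 3. This comparison shares its day 1 arrays with the day 1 comparison above, and without the treated day 1 array of preparation 3 its median was 0.05. With all arrays of preparation 1, 2 or 3 left out, which keeps the pairs whole, it was 0.20, 0.19 and 0.17. Rpl37a, a zinc-binding protein of the large subunit, had values of 2400.6, 2545.8 and 1982.4 in treated day 1 preparations 1 to 3 and 2548.7, 3408.9 and 2747.3 at day 3. All 3 day 3 values were above the day 1 values, by a small margin at the lowest. Its difference was 0.33 ± 0.16 (SE) with a limma adjusted p of 0.62 (0.21 with the block), and 6.52% of all tested probe sets were separated in this direction.

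The bright genes shifted together from array to array, more by preparation than by group. Their median deviation from their own means was 0.06 to 0.25 on the 5 arrays of preparation 2, -0.19 to 0.07 on those of preparation 1 and -0.36 to 0.05 on those of preparation 3. By group the mean deviation was 0.06 ± 0.04 (SD, n = 3) at day 0, -0.01 ± 0.13 for GP day 1, -0.13 ± 0.22 for treated day 1, 0.02 ± 0.19 for GP day 3 and 0.07 ± 0.18 for treated day 3. The 3 arrays of day 0 lay between 0.02 and 0.09, and every other group overlapped that range. The 20 genes held 3.92% to 5.53% of an array's summed signal, with a group mean of 4.85% ± 0.358 in GP day 1 and 4.55% ± 0.599 in treated day 1 arrays.

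**Figure D3:**
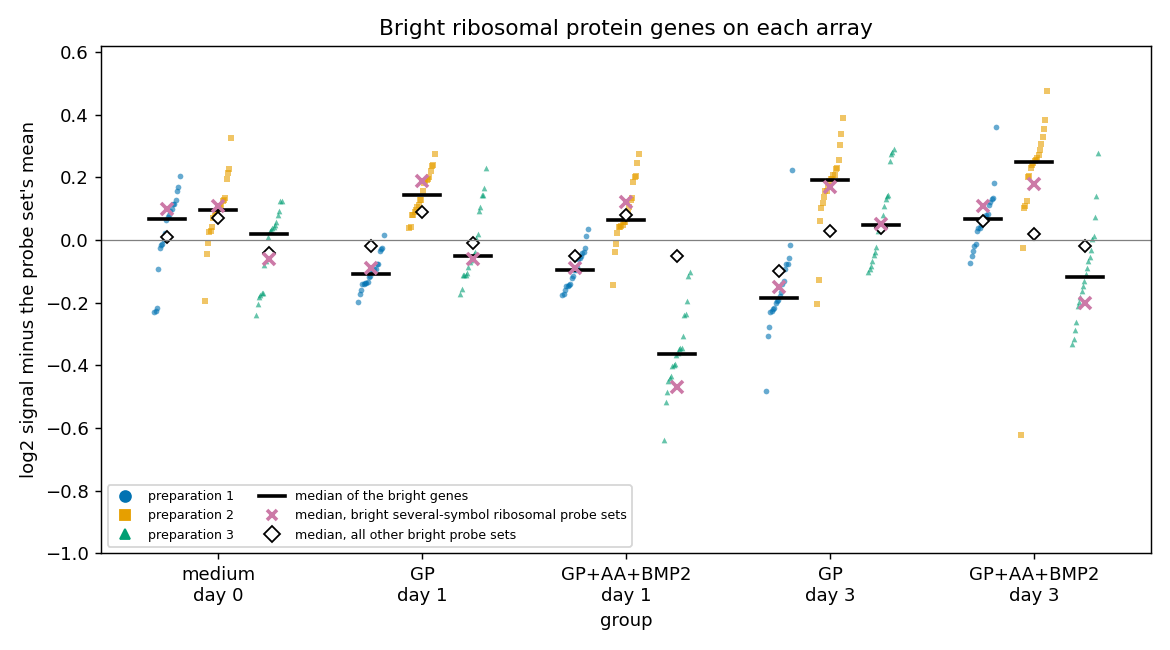
Log2 deviation of each of the 20 bright genes from its own mean (small symbols, by preparation), their median (black bar), the median of the 24 bright ribosomal probe sets with several symbols (cross) and of the 463 other bright probe sets (diamond), on each array. The treated day 1 array of preparation 3 lies lowest at -0.36, while the other bright probe sets are at -0.05 there.

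The 24 bright ribosomal probe sets with several symbols, which took no part in the rule, gave the same picture. Their median deviation was -0.47 on the treated day 1 array of preparation 3 and 0.11 to 0.19 on the arrays of preparation 2. They share arrays with the 20 genes and may share sequence with them, so they are not independent samples. For treated against GP at day 1 their median was -0.15 (23 lower), and 0 of 24 were called with or without the block.

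After group means were removed, the median correlation between pairs of bright genes was 0.69 over the 15 arrays (190 pairs, from -0.36 to 0.99, with 181 above 0). The pairs share the arrays' scaling and RNA, so the values are a description. Rplp0, the base of the P-stalk that recruits elongation factors, Rps3a1, Rps4x and Rps28 each had a correlation of 0.95 with the median of the other bright genes, and 13 of the 20 were above 0.8. Rps19, a protein needed to mature the small subunit's RNA and mutated in Diamond-Blackfan anaemia, was the least alike at 0.04. Rpl13a, which also takes part in silencing messengers after interferon-gamma, had 0.21, and Rpsa, also known as a laminin receptor precursor, had 0.36. Subtracting each array's median over the bright genes lowered the median SD of a gene's deviations from 0.16 to 0.09. Each gene is part of that median and the genes are correlated, so a lower SD follows in part from the subtraction.

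**Figure D4:**
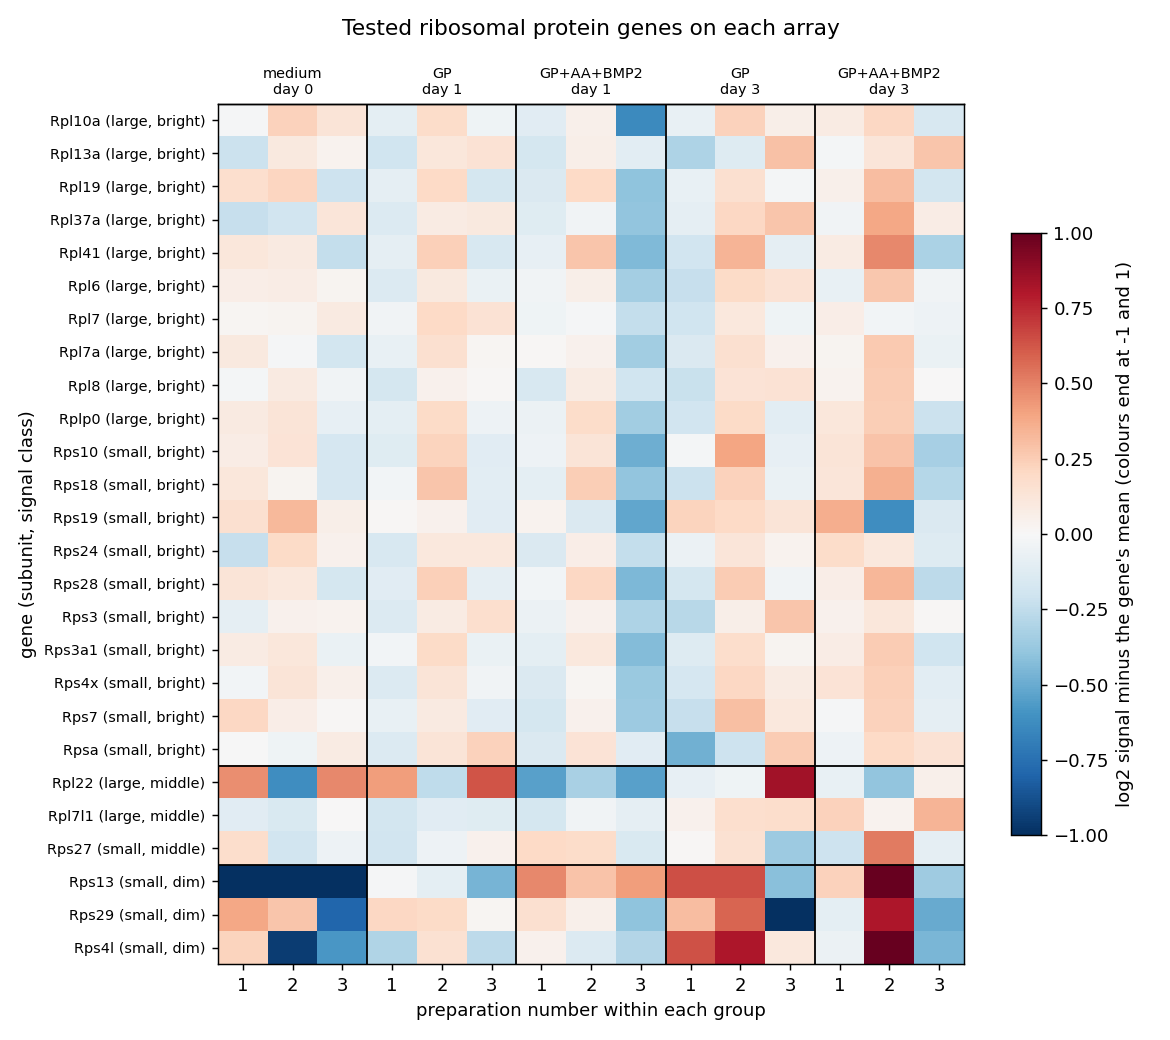
Log2 signal of the 26 tested genes on each of the 15 arrays, minus the gene's mean over all arrays, ordered by signal class and subunit. Columns are the preparations within each group. The bright rows change colour together from column to column, and the treated day 1 array of preparation 3 is blue for all 20 bright genes.

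The bright genes varied less than most probe sets. Their 5 group means spanned a median of 0.19 on the log2 scale, from 0.12 for Rplp0 to 0.39 for Rps19, where the median over all tested probe sets was 0.49. Their median SD within groups was 0.19, against 0.32 for all tested. Dim signals vary more on arrays, and no comparison at equal brightness was made. The smallest spans among the 26 belonged to Rplp0 (0.12), Rps27 and Rps28 (both 0.14), and the largest to Rps13 (1.79), Rps4l (0.95) and Rpl22 (0.74).

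Rplp0 had intensities of 11321.2, 11574.5 and 10032.5 at day 0 in preparations 1 to 3, and 9919.6, 12090.8 and 10218.1 in GP day 1. It had 10176.8, 12067.6 and 8362 in treated day 1, 9283.3, 12141.3 and 9882.6 in GP day 3 and 11473.1, 12576.7 and 9165.8 in treated day 3 arrays. Preparation 2 was highest in every group, and all groups overlapped. The difference between treated and GP cultures was -0.09 ± 0.16 (SE) at day 1 and 0.08 ± 0.16 at day 3.

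Among the small-subunit genes, Rps19 departed from the others. Its values were 5846.8, 6576.3 and 5461.3 at day 0, then 5298.4, 5390.4 and 4853.1 in GP day 1 and 6122.3, 6005.6 and 5739.8 in GP day 3 arrays. Each GP day 1 value was below each value of day 0 and of GP day 3. Treated arrays gave 5369, 4745.7 and 3665.5 at day 1 and 6734.6, 3404.5 and 4742.2 at day 3, so the day 3 values lay on both sides of the GP day 3 values. The lowest of them came from preparation 2, on which the bright genes had their highest median, 0.25. Its differences were -0.20 ± 0.20 for GP day 1 against day 0, 0.20 ± 0.20 for GP day 3 against GP day 1 and -0.32 ± 0.20 for treated against GP at day 3, and the limma adjusted p-values were 1, 0.998 and 0.481. Separation in these directions was seen for 3.56% and 5.38% of all tested probe sets in the first 2 of these comparisons.

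Other small-subunit genes gave differences within their errors. Rpsa was 0.24 ± 0.17 higher in treated than in GP cultures at day 3, with values of 2350.4, 2795.1 and 2684.8 against 1743.8, 2111.9 and 2897.1 and a limma adjusted p of 0.535. The groups overlapped through the GP array of preparation 3. Its actin probe sets gave a 3' to 5' ratio of 2.11, against 1.00 to 1.34 on the other arrays, and a high ratio can mark degraded RNA. Every comparison that uses GP day 3 includes this array, and the part of RNA quality in them was not tested. Rps3, at the entry of the messenger channel, differed by -0.14 ± 0.14 at day 1 and 0.03 ± 0.14 at day 3. Rps4x differed by -0.15 ± 0.14 and 0.05 ± 0.14, and its relative Rps4l, a dim probe set, by 0.01 ± 0.43 and -0.34 ± 0.43. Rps27, a zinc-binding protein, differed by 0.14 ± 0.20 at both days on a probe set with a mean of 291. A brighter probe set (mean 5700), which names Rps27 beside another symbol and is outside the rule, had the other sign. It gave -0.34 at day 1 and -0.13 at day 3, with limma adjusted p-values of 0.473 and 0.783.

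Rps13, a core protein of the small subunit, had the widest span of group means but a dim probe set of a relaxed design (a suffix that marks probes chosen under loosened rules). Its values were 16.7, 15.1 and 14.9 at day 0, 34, 32 and 24.8 in GP day 1 and 47.7, 41.7 and 45.9 in treated day 1 arrays. These 3 groups did not overlap. The day 0 values all lay under the filter of 22.3, and the probe set passed it through the other groups, so the size of a difference from day 0 rests on values near background. At day 3 the values were 53.6, 53.6 and 25.6 in GP and 40.1, 144.3 and 26.8 in treated arrays, which overlapped widely. GP day 1 against day 0 gave 0.95 ± 0.49, with a limma adjusted p of 1 (0.648 with the block), and treated against GP at day 1 gave 0.59 ± 0.49, with an adjusted p of 0.80. Among all tested probe sets 5.62% and 8.44% were separated in these directions.

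Of the large-subunit genes, Rpl22 had the largest difference between treated and GP cultures. Rpl22 binds RNA and is known for its need in T-cell development. Its values were 346.8, 217.9 and 400.4 in GP day 1 and 177.6, 207.2 and 177.8 in treated day 1 arrays. The 3 treated values were all below the GP values, with preparation 2 only slightly so, and the day 0 value of preparation 2, 168.7, was lower still. The difference was -0.74 ± 0.32 (95% interval -1.42 to -0.05), with an unadjusted p of 0.0376 and a limma adjusted p of 0.389, so Rpl22 did not pass. The adjusted p was 0.0944 with the block and reached 0.946 under the other settings. Of all tested probe sets, 8.63% were separated in this direction.

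At day 3 the Rpl22 difference was -0.38 ± 0.32, from 244.6, 251.5 and 465.1 in GP and 246.2, 196.9 and 268.6 in treated arrays. The highest value came from the GP array of preparation 3, whose actin probe sets gave a 3' to 5' ratio of 2.11, against 1.00 to 1.34 on the other 14 arrays; a high ratio can mark degraded RNA. Without that array the difference was -0.08, and the part of RNA quality in it was not tested. A second, dim probe set of Rpl22 gave -0.38 at day 1 and -0.69 at day 3, with limma adjusted p-values of 0.936 and 0.654.

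Rpl7l1, a relative of Rpl7 with its own gene, was the 1 member with an unadjusted p under 0.05 between treated days. Its values were 112.1, 123.5 and 119 at treated day 1 and 148.9, 129.6 and 160.3 at treated day 3, without overlap. GP cultures had 111.7, 117.4 and 116.5 at day 1 and 130.4, 142.1 and 143.3 at day 3, also without overlap. The day 3 to day 1 differences were 0.30 ± 0.14 in treated and 0.27 ± 0.14 in GP cultures, and the limma adjusted p-values were 0.593 and 0.853 (0.243 and 0.392 with the block). Treated and GP cultures differed by 0.04 ± 0.14 at day 1 and 0.07 ± 0.14 at day 3. Higher values without overlap were seen for 6.52% of all tested probe sets between treated days and 5.38% between GP days. Rpl7 itself gave -0.20 ± 0.11 for treated against GP at day 1, with an adjusted p of 0.561, and 0.04 ± 0.11 at day 3.

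**Figure D5:**
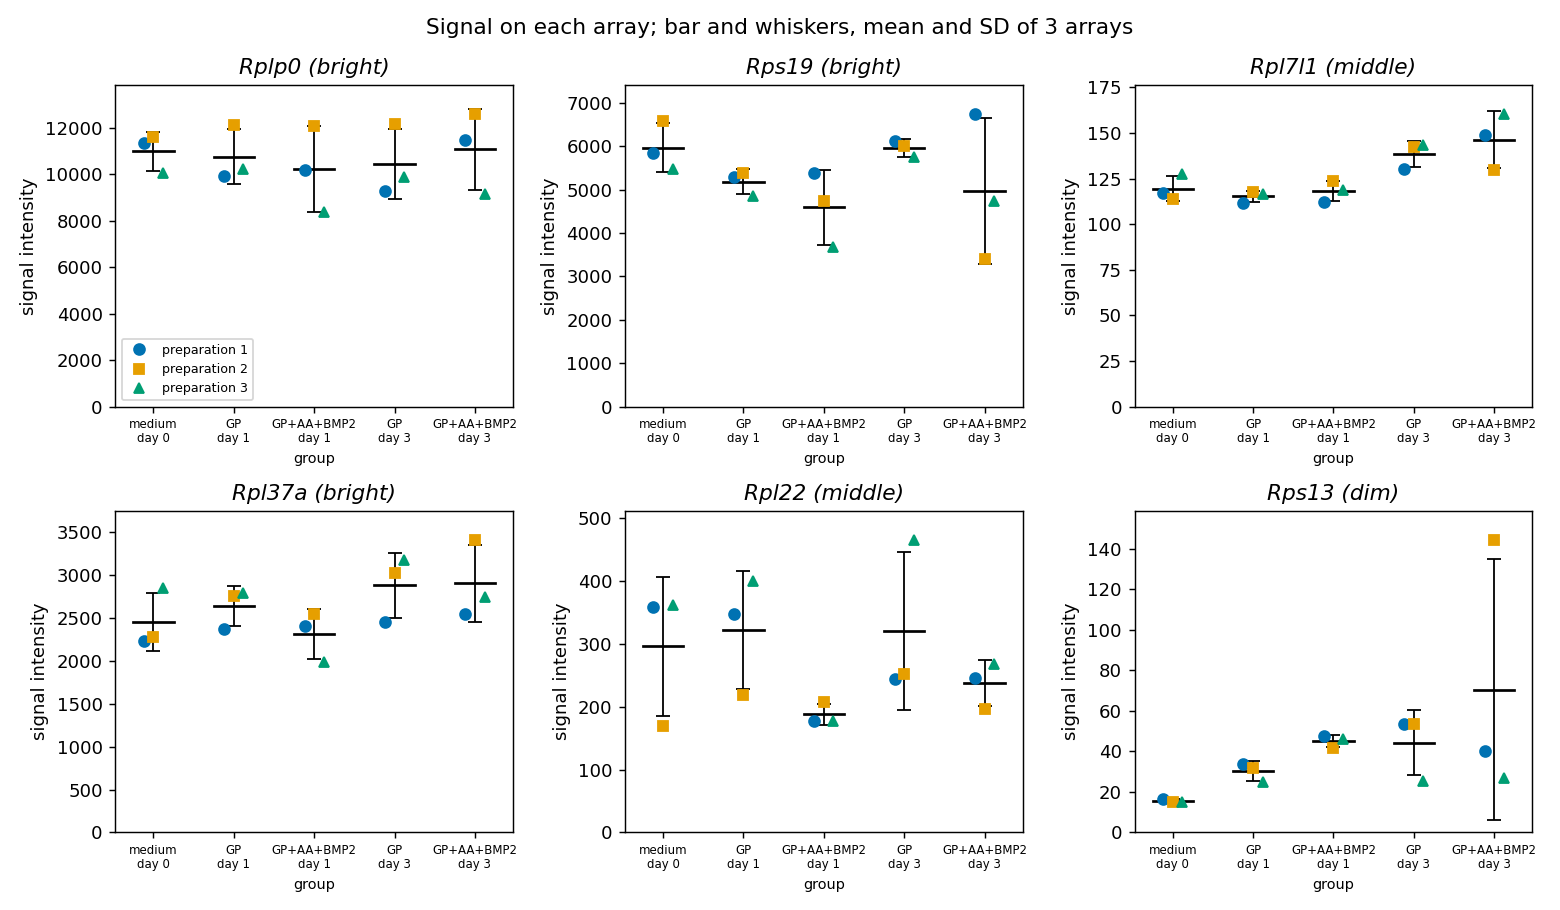
Signal intensity of Rplp0, Rps19, Rpl7l1, Rpl37a, Rpl22 and Rps13 on each array by group, with symbols for the preparation and the mean ± SD of 3 arrays as bar and whiskers; each axis starts at 0. Rpl22 shows the treated day 1 values together at 177.6 to 207.2, below the GP day 1 values, and Rps13 shows the wide spread of treated day 3.

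The remaining large-subunit genes lay close together. Rpl10a gave -0.25 ± 0.17 for treated against GP at day 1, with a limma adjusted p of 0.687, and its second bright probe set gave -0.27 with 0.513. Within preparations the values were -0.01, -0.14 and -0.59, so the largest came from preparation 3. Rpl13a gave 0.18 ± 0.16 at day 3 with an adjusted p of 0.669. Rpl6, Rpl7a, Rpl8, Rpl19 and Rpl41 had differences of -0.13 to -0.05 at day 1 and 0.02 to 0.08 at day 3.

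Genes that make and use ribosomes were read beside their protein components. Of 40 tested ribosome biogenesis genes, 1 rose with treatment at day 1 and 4 at day 3, and 0 fell (median 0.32 and 0.40), where 0.926% and 4.11% of all tested probe sets were called. With the block 3 and 13 rose, against 4.99% and 13.8% of all, and 11 and 12 had an unadjusted p under 0.05 without it, against 11.3% and 16.7% of all. Nhp2, a core protein of H/ACA ribonucleoproteins that guide pseudouridylation, had 388.3, 395.6 and 467.6 in GP day 1 and 730.7, 1015.4 and 869.5 in treated day 1 arrays. These groups did not overlap, and 8.44% of all tested probe sets were separated in this direction. The Nhp2 differences were 1.06 ± 0.18 at day 1 and 1.04 ± 0.18 at day 3, with limma adjusted p-values of 0.0166 and 0.007. At day 3 the nucleolar proteins Gnl3 (0.72 ± 0.16) and Ebna1bp2 (0.99 ± 0.24) and fibrillarin, Fbl (0.61 ± 0.16), the rRNA methyltransferase, also rose, with adjusted p-values of 0.0235, 0.0336 and 0.0479.

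Of 59 tested mitochondrial ribosomal protein genes, 0 were called by limma at day 1 and 2 at day 3, against 0.926% and 4.11% of all. At day 1, 7 had an unadjusted p under 0.05 and 3 were called with the block, against 11.3% and 4.99% of all. At day 3, 9 had an unadjusted p under 0.05 and 6 were called with the block, against 16.7% and 13.8% of all. These counts of calls do not stand apart from the background. By direction, 45 of the 59 were higher in treated cultures at day 1 and 49 at day 3. Of all tested probe sets, 50.6% were lower at day 1 and 50% were higher at day 3. The 2 genes called at day 3 were higher in treated cultures, Mrps28 by 0.99 ± 0.22 and Mrpl12 by 0.92 ± 0.21, with limma adjusted p-values of 0.0256 and 0.0291. The medians over the 59 were 0.11 and 0.16 at days 1 and 3, against -0.13 and 0.04 for the cytosolic genes. The difference between these lists was not tested.

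Of 16 tested genes for other TOP messengers and ribosome-associated proteins, among them elongation factors, 0 were called by limma at either day (3 at an unadjusted p under 0.05 at each), with medians of -0.15 and 0.03. With the block 1 fell at each day, Eif4b (-0.69 ± 0.19 at day 1, adjusted p of 0.111 without and 0.0114 with the block) and Eif3f (-1.02 ± 0.32 at day 3, 0.093 and 0.0476). Of all tested probe sets, the block called 4.99% at day 1 and 13.8% at day 3. Without it 0.926% and 4.11% were called, and 11.3% and 16.7% had an unadjusted p under 0.05. On the treated day 1 array of preparation 3 the 11 bright genes of this list had a median deviation of -0.27. Of 27 tested initiation and termination factors, 0 were called at day 1 (3 at an unadjusted p under 0.05, 1 with the block) and 2 at day 3, where 0.926% and 4.11% of all were called. At day 3 Eif2b1, a subunit of the exchange factor for eIF2, rose by 0.58 ± 0.15 and Eif4g2 fell by 0.90 ± 0.18, with adjusted p-values of 0.0467 and 0.0155.

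Of 20 tested regulators of mTORC1, S6 kinase and Myc, 1 fell at day 1, without and with the block. Of all tested probe sets, 0.926% and 4.99% were called there. Ddit4, which inhibits mTORC1, had 862.8, 760 and 467.2 in GP and 173.9, 201.3 and 199.3 in treated day 1 arrays. These groups did not overlap, and 8.63% of all tested probe sets were separated in this direction. The Ddit4 difference was -1.82 ± 0.28, with a limma adjusted p of 0.0107. At day 3 0 of the 20 were called, against 4.11% of all tested probe sets. The counts were 3 at an unadjusted p under 0.05 (16.7% of all) and 3 with the block (13.8% of all). Myc, which drives ribosome genes, was 0.94 ± 0.28 higher at day 3 with an adjusted p of 0.0795, and 0.0015 with the block. In the other 4 comparisons none of these 5 lists had a gene called by limma without the block. With the block Pabpc1 and Mxd3 fell from GP day 1 to day 3 (by 0.39 ± 0.11 and 1.49 ± 0.36 on the log2 scale, with the SE without the block here and in the next sentence, limma adjusted p of 0.033 and 0.0307), where 1.85% of all were called. Between treated days, where the block called 3.84% of all, Eif4g2 fell by 0.65 ± 0.18 (adjusted p = 0.0347), and Imp3, Mxd4 and Myc rose by 0.54 ± 0.15, 0.68 ± 0.30 and 0.96 ± 0.28 (adjusted p of 0.0368, 0.0497 and 0.00371).

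All arrays had the same trimmed mean, 150.1, so a shift of total RNA cannot be seen. Values at or under the floor of 2.8 made up 7.29% to 10% of probe sets in preparations 1 and 2 and 12.1% to 14.3% in preparation 3. The part of preparation in the results of the bright genes was not tested beyond the values within preparations. Of the 9 osteoblast and fibroblast markers on the array, 8 passed the filter, and their summed intensity was 25400 to 42900. Of the markers of other cells, 2 of 6 for macrophages passed (sum 364 to 1080, mostly Cd14), 1 of 5 for epithelium (87.3 to 211), 3 of 5 for skeletal muscle (110 to 176), and 0 of 5 for endothelium, 0 of 4 for adipocytes and 0 of 2 for chondrocytes.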

How the data were processed

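The authors deposited 1 linear signal intensity for each of 12488 probe sets on 15 single-colour arrays. How the scans were turned into intensities is not given in the sources used here. Every array had a mean of 150.1 between its 2nd and 98th percentiles. The 66 control probe sets were left out, intensities were floored at 2.8 (the 10th percentile of all values), and log2 was taken. Probe sets with a mean log2 under that of an intensity of 22.3 (the 40th percentile) were removed, which left 7453. Names came from the platform annotation: 10833 probe sets had 1 symbol, 396 several and 1193 none.

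All groups entered 1 fit in limma 3.58.1 under R 4.3.3, with moderated variances that follow mean signal and 10 residual degrees of freedom, without a replicate block, with Benjamini-Hochberg adjustment and a threshold of 0.05. The fit was tested on simulated data with known differences and independent noise for each probe set and array. That simulation held no shifts shared by arrays or genes, so it cannot show how the fit handles them. An alternative fit had the preparation number as a block. Deviations from group means correlated at 0.19 to 0.70 for all 30 pairs of same-numbered arrays in different groups. The 60 other pairs had a median of -0.32, from -0.57 to 0.26, with 19 above 0.1, so the ranges overlap. Deviations sum to 0 within a group, so a median below 0 for the other pairs follows in part from the subtraction. Errors of log2 differences are standard errors, and those of group values are SDs. The number of arrays limits the precision.

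Members, gene lists and tests were chosen with earlier results of these data known, so no list was given a test of its own. Named members were, per comparison, any that passed, or else the 3 with the largest difference each way, a fixed set of members of known interest (P-stalk, Rpsa, Rps3, Rps19 and genes with a close relative), and the 3 largest and 3 smallest ranges of group means. Those of the fixed set without a single-symbol probe set were not analysed here. Other members are named only to account for signal classes, probe sets, likeness between genes and ranges, after their values were seen. From the 5 related lists up to 3 called genes per comparison were named, and genes beyond that, such as those called only with the block, were chosen after their values were seen. Alternatives were quantile and median scaling, other floors and filters, array weights, no mean trend, other probe sets, fewer groups and each array or preparation left out. Centring on other bright probe sets was added after the data were seen. Promoter letters came from RefSeq (GRCm38.p6).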

Additional observations from a re-analysis of the deposited data

How the results depend on the processing

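The count of called ribosomal protein genes was 0 of 26 in all 6 comparisons under every alternative run (20 each, 26 for the difference between the day 3 and day 1 effects), and at most 4 had an unadjusted p under 0.05. The replicate block, which pairs the arrays by preparation, changed no call of a member: the count was 0 and the medians at day 1 and day 3 were -0.13 and 0.04 as without it. Without it and with it, the whole array had 69 and 372 calls at day 1, 306 and 1031 at day 3, 18 and 54 for GP day 1 against day 0, 53 and 138 for GP day 3 against day 1, and 11 and 286 between treated days. For the treated against GP comparisons the member median stayed between -0.23 and -0.01 at day 1 and between -0.08 and 0.13 at day 3, and for GP day 1 against day 0 between -0.06 and 0.08, each within the spread between preparations. The median of the difference between effects, 0.16, was 0.03 with quantile normalization, 0.06 with array weights, 0.10 with arrays centred on other bright probe sets (chosen after seeing the data) and 0.05 to 0.28 with 1 array left out, but 0.12, 0.18 and 0.15 with preparation 1, 2 or 3 left out whole. The median between treated days, 0.17, was 0.10 with quantile normalization, 0.11 with array weights, and 0.05 (without treated day 1 preparation 3) to 0.28 (without treated day 1 preparation 2) with 1 array left out, but 0.20, 0.19 and 0.17 with preparation 1, 2 or 3 left out whole. The median between GP days, 0.02, was -0.03 to 0.13 with 1 array left out. The cause was not tested. Among values of single named genes 988 stayed and 10 moved by more than their spread between preparations, and 0 gained a call. Dim probe sets such as Rps13, Rps29 and Rps4l, at mean intensities of 25.6 to 44.1, limit what can be said of those genes.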

Other observations

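A probe set outside the rule, whose annotation joins a ribosomal protein gene with other symbols (5 in all), was the 1 of 34 such tested probe sets called in any of the 6 comparisons; it was singled out after its values were seen, and no gene is named from it. Its values were 4.7, 15.2 and 95.9 in GP day 3 and 176.8, 223.8 and 120.4 in treated day 3 arrays. For treated against GP at day 3, limma called 4.11% of all tested probe sets, and 13.8% with the block. Of the 3 GP day 3 values, 2 were far below the values of all other groups, which lay between 78.6 and 223.8. The lower GP values, 4.7 and 15.2, lay under the filter of 22.3, so the size of the difference rests on values near background. It was 3.15 ± 0.75 (SE) with a limma adjusted p of 0.0319, and 0.00999 with the replicate block. At day 1 it was 0.13 ± 0.75, and the difference between the effects was 3.02 ± 1.06 with an adjusted p of 1.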
